A study of Homo sapiens with 15 samples.

Results

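The genes described here are 10 neurosecretory vesicle, synaptic and neuronal marker genes, SNAP25, SYT4, SYP, ENO2, CHGA, CHGB, SCG2, SCG3, SYT1 and SYT11, out of 58381 genes counted by bulk RNA-seq in 5 sublines of VCaP, an established prostate cancer cell line. They were chosen by name, with the levels of these genes in these libraries already known, in order to set genes lost after the VCaP-T subline against genes kept or raised. All 10 were matched from the gene identifier to the symbol, and 9 of the 10 passed the filter on low counts and entered the fit of 19621 genes. CHGA did not, with at most 1 count in any of the 15 libraries.

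Each subline was represented by 3 libraries. Per the protocol, VCaP-T cells were kept in culture with 10 nM testosterone for 7 months. VCaP-CT cells were VCaP-T cells carried for a further 10 months at 0.1 nM testosterone, which models androgen deprivation. VCaP-CT-ER cells were VCaP-CT cells kept in 10 µM of the androgen receptor antagonist enzalutamide (ENZ) until they grew again. VCaP-CT-BR cells came from VCaP-CT cells under the older antagonist bicalutamide, and VCaP-CT-BR-ER cells were bicalutamide-insensitive cells that went on to grow in ENZ. The labels differ from the protocol in places: they list 10 nM testosterone for the second period too, and for VCaP-CT-BR they also name ENZ after bicalutamide. Every subline was derived once, so the treatment, the months in culture and the derivation itself cannot be told apart, and a p-value measures only the spread between libraries of 1 derivation.

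Library totals ranged from 33665716 to 46935279 counted fragments, with a median of 38500319. Levels are given as CPM, the counts of a gene brought to a common library size with TMM scaling, as the mean ± SD of 3 libraries unless the libraries are given singly. A count of 3, taken as the floor of detection, was 0.0639 to 0.0891 CPM. Ratios of summed counts are divided by the ratio of the TMM-scaled library sizes, so they differ from the plain quotient of the counts. Counting intervals and floors cover counting error only. All 9 markers of prostate luminal epithelium were detected in every library, with summed levels of 24000 to 24800 CPM in VCaP-T libraries, 12700 to 13400 for VCaP-CT and 6580 to 6750 for VCaP-CT-BR-ER. KLK2 made up most of the sum, at 14400 CPM in VCaP-T. KLK3, which encodes prostate-specific antigen, averaged 3560 CPM in VCaP-T and 14.1 to 521 CPM in the later sublines. In the later sublines together against VCaP-T, 8 of the 9 markers were lower and 1 was higher. The higher one was FOLH1, at 1.78 CPM in VCaP-T and 13.6 to 44.0 CPM later. HOXB13 and ACP3 were higher in VCaP-CT than in VCaP-T, at 709 against 595 CPM and 3370 against 3080 CPM. The 9 markers of fibroblasts and blood cells summed to between 2.0 and 11.5 CPM over all libraries, and 3 of them had no more than 3 counts in any library. In these bulk samples, fewer cells of a type and less RNA per cell cannot be told apart.

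Neuroendocrine cells store peptide hormones in dense core granules, whose cores are built around granins such as the chromogranins and secretogranins, and neurons pack transmitters in synaptic vesicles that carry synaptophysin. Both kinds of vesicle fuse with the plasma membrane through SNARE proteins, of which SNAP25 is one, and synaptotagmins sense the calcium that triggers this step. In the prostate, CHGA, SYP and ENO2 serve pathologists as neuroendocrine markers, and neuroendocrine prostate cancer can appear after long androgen receptor inhibition.

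The split of the 10 genes was as follows. A gene was called lost where every later subline had a mean under 0.5 times that of VCaP-T, and raised where every later subline had a mean over 2 times it. CHGB, SCG3, SYP, SNAP25 and SYT4 (5 genes) were lost, ENO2 (1 gene) was raised, SCG2, SYT1 and SYT11 (3 genes) were kept or mixed, and CHGA (1 gene) was not detectable. Over all genes tested, 7.84% met the first threshold and 3.5% the second. In the 5 lost genes every later library was below every VCaP-T library, as in 20.2% of all genes tested. Since the genes were chosen with this contrast in view, nothing is read from these shares, and no test against VCaP-T is given for any of the 10. SYP was the lost gene nearest to the threshold, at 0.185 times the VCaP-T mean in its highest later subline. The nearest gene outside it, SYT11, was not close to it, at 0.92 times in VCaP-CT-ER and 0.169 times in VCaP-CT. SCG2 and SYT11 stayed out of the lost class only through their level in VCaP-CT-ER. Tests of these genes that involve VCaP-CT-ER are thus not independent of their class and describe the size of the difference only.

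**Figure D1:**
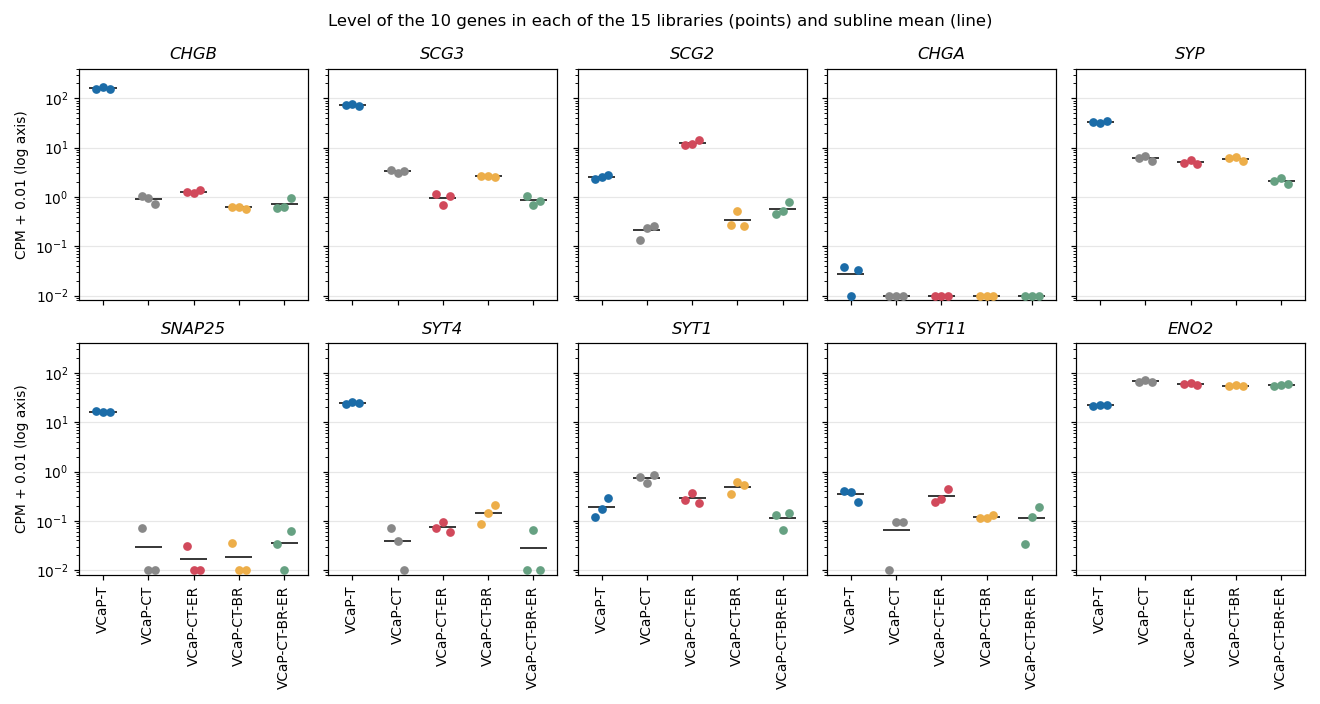
Level of each of the 10 genes in the 15 libraries, as CPM plus 0.01 on a log axis, by subline; points are libraries and lines are means of 3. CHGB, SCG3, SYP, SNAP25 and SYT4 lie lower in all 4 later sublines, ENO2 lies higher in them, and SCG2 was highest in VCaP-CT-ER, at 11.4 to 14.0 CPM.

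Promoter sequence was looked up for the 10 genes in a RefSeq table of build GRCh38.p14, and 7 of them matched. SNAP25, CHGB and SCG2 are named only. The 250 bases before the RefSeq start are shown for 3 lost genes, the raised gene and CHGA, which was not detectable, so that genes that moved together can be compared by eye with those that did not. Capitals mark matches on either strand to the cyclic AMP response element (TGACGTCA), to its core (TGACG, which the full element holds on each strand) and to the GC box (GGGCGG, read as CCGCCC on the other strand).
SCG3 (lost, + strand, chr15:51681253-51681502): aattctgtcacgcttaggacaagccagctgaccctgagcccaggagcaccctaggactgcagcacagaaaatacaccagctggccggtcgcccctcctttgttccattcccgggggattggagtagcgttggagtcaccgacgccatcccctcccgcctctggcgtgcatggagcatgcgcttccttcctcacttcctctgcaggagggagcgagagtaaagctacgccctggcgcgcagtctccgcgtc
SYT4 (lost, - strand, chr18:43277491-43277740): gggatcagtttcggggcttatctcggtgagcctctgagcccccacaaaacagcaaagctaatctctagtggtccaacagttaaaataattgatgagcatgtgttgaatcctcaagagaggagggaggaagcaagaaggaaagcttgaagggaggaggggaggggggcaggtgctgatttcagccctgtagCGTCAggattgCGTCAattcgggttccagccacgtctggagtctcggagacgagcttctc
SYP (lost, - strand, chrX:49200194-49200443): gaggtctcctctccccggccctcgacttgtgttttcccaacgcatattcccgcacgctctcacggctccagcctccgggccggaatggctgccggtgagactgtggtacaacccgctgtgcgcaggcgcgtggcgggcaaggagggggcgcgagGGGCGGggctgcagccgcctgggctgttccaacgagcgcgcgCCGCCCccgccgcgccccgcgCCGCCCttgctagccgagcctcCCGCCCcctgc
ENO2 (raised, + strand, chr12:6914330-6914579): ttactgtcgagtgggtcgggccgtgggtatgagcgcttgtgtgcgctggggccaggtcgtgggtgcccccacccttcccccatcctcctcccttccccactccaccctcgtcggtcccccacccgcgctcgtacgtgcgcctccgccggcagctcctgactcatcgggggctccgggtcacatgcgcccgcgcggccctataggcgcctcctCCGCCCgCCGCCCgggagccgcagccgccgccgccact
CHGA (not detectable, + strand, chr14:92922900-92923149): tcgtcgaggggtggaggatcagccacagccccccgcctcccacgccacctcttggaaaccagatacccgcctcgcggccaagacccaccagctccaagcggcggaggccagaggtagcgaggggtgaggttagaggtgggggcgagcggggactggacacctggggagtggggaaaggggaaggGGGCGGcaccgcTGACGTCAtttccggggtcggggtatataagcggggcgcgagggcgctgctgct

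The counting annotation starts some transcripts earlier than RefSeq, so that 150 bases of the SCG3 window, 160 of SYT4, 66 of SYP, 70 of CHGA and all 250 of ENO2 lie in its exons. The full cyclic AMP response element was present in CHGA, at −54 to −47 from the RefSeq start, and in 1.65% of the 35116 promoters of the table. The core was found in 3 of the 7 promoters (CHGA, SYT4 and SYT11) and in 21.2% of all promoters. In SYT4 it occurred at −60 to −56 and at −49 to −45. GC boxes were found in 4 of the 7 (SYP, ENO2, CHGA and SYT1), against 42.6% of all promoters. SYP held 4 of them and ENO2 held 2. The lost SYP and the raised ENO2 had the same base composition, with 74.0% G and C each and 31 and 30 CpG sites, and the lost SYT4 had 52.8% and 8 sites. The medians over the table were 58.0% and 11 sites. No match in any of the 7 windows was found for the left (TTCAGCACC) and right (GGACAGC) parts of the RE1 element, which the repressor REST binds to silence neuronal genes outside neurons, for the androgen receptor core AGAACA or for TATAAA, which 0.288%, 4.76%, 12.4% and 10.7% of all promoters hold on either strand. Only these exact letters were searched, so sites that differ from them by a base were not counted. The matches, and their absence, are a description of the windows only.

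CHGB had the highest TPM of the granin genes in VCaP-T and stood far lower afterwards. It encodes chromogranin B, a soluble core protein of the granule, from chr20:5911430-5925361 on the + strand of GRCh38, the build of all positions given here. The 3 VCaP-T libraries held 156, 166 and 155 CPM, from 5653, 6115 and 6602 counts. The later libraries held 1.03, 0.94 and 0.699 CPM in VCaP-CT and 1.24, 1.17 and 1.39 in VCaP-CT-ER. The values were 0.622, 0.628 and 0.57 in VCaP-CT-BR, and 0.583, 0.624 and 0.944 in VCaP-CT-BR-ER. No later library reached 2 CPM, and all of them still counted CHGB, with 23 to 60 counts each. From summed counts, VCaP-T was 180-fold above VCaP-CT (95% counting interval 146 to 223) and 126-fold above VCaP-CT-ER (109 to 147).

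Within this low range CHGB differed between later sublines. Among the 9 genes, 7 passed the test in VCaP-CT-ER against VCaP-CT (adjusted p under 0.05 in edgeR's quasi-likelihood test over all 19621 genes), beside 60.9% of all genes tested. CHGB was one of them, higher in VCaP-CT-ER by 0.51 ± 0.17 on the log2 scale (SE, edgeR adjusted p = 0.0126). Without VCaP-CT replicate 3 the difference was 0.38 with an adjusted p of 0.1. VCaP-CT-BR-ER was lower than VCaP-CT-ER, at -0.82 ± 0.17 on the log2 scale (edgeR adjusted p = 0.000519), and this call held whichever library was left out.

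SCG3 was lost in 2 stages. It encodes secretogranin III, a membrane-associated granin that binds other granins and helps sort them into the granule, from chr15:51681353-51721031 on the + strand. The VCaP-T libraries held 74.5, 76.0 and 71.2 CPM. VCaP-CT held 3.5, 3.05 and 3.27 CPM, and VCaP-CT-BR held 2.67, 2.59 and 2.55. The libraries of each subline lay closely together, with those of VCaP-CT-BR just below those of VCaP-CT. Both sublines named for ENZ resistance were lower again, at 1.14, 0.668 and 1.04 CPM in VCaP-CT-ER and 1.02, 0.678 and 0.813 in VCaP-CT-BR-ER. Their libraries did not overlap with those of VCaP-CT or VCaP-CT-BR.

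In VCaP-CT-ER against VCaP-CT, SCG3 fell by 1.79 ± 0.15 on the log2 scale (edgeR adjusted p = 1.11e-09). In VCaP-CT-BR-ER against VCaP-CT-BR, where 4 of the 9 genes passed beside 42.9% of all genes tested, it fell by 1.62 ± 0.16 (edgeR adjusted p = 4.9e-08). The difference between these steps, the second minus the first, was 0.16 ± 0.23 on the log2 scale, with an interval from -0.29 to 0.61 (edgeR adjusted p = 0.588). Both ENZ-resistant sublines differed by -0.17, with an interval from -0.54 to 0.21 (edgeR adjusted p = 0.508).

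SCG2 did not follow CHGB and SCG3. It encodes secretogranin II, the precursor of the peptide secretoneurin, from chr2:223596940-223602503 on the - strand. VCaP-T held 2.26, 2.53 and 2.75 CPM. VCaP-CT held 0.121, 0.228 and 0.252 CPM, from 4, 8 and 9 counts. VCaP-CT-ER held 11.4, 11.6 and 14.0 CPM, from 552, 556 and 563 counts. All 3 VCaP-CT-ER libraries therefore lay above all other libraries, those of VCaP-T included. VCaP-CT-BR held 0.259, 0.497 and 0.248 CPM and VCaP-CT-BR-ER held 0.437, 0.515 and 0.76. All of these were under the VCaP-T libraries, and those of VCaP-CT-BR-ER lay above those of VCaP-CT.

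The rise of SCG2 from VCaP-CT to VCaP-CT-ER was 5.91 ± 0.21 on the log2 scale, or 60.1-fold (edgeR adjusted p = 1.28e-15). VCaP-CT-ER alone kept SCG2 out of the lost class, so this test adds no support to that class. VCaP-CT-BR-ER was lower than VCaP-CT-ER, at -4.43 ± 0.17 on this scale (edgeR adjusted p = 1.08e-14), in a comparison in which 5 of the 9 genes passed beside 45.9% of all genes tested. Between VCaP-CT-BR and its derivative VCaP-CT-BR-ER the change was 0.77 ± 0.32 (edgeR adjusted p = 0.0563). It passed in 6 of 20 alternatives, with adjusted p values of 0.0118 without VCaP-CT-BR replicate 2, 0.0331 without VCaP-CT-BR-ER replicate 1 and 0.0449 without VCaP-CT-ER replicate 3. The test of the difference between both steps into ENZ resistance, as the step to VCaP-CT-BR-ER minus the step to VCaP-CT-ER, in which 5 of the 9 genes passed beside 49.7% of all genes tested, gave -5.14 ± 0.47 for SCG2 (edgeR adjusted p = 1.3e-08).

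The make-up of granin RNA shifted with these changes. Scaled by transcript length, as TPM, which puts genes of unequal length on 1 scale, the granins summed to 154 ± 5.66 TPM in VCaP-T and 3.11 ± 0.151 TPM in VCaP-CT. The sum was 13.3 ± 1.41 TPM for VCaP-CT-ER, 2.63 ± 0.129 for VCaP-CT-BR and 1.56 ± 0.251 for VCaP-CT-BR-ER. CHGB made up 60.2% of this sum in VCaP-T and SCG2 1.59%. SCG3 made up 78.5% in VCaP-CT cells and 75.5% in VCaP-CT-BR cells. In VCaP-CT-ER, SCG2 made up 88.9%. CHGA, the granin most used as a marker, contributed 1, 0 and 1 counts in the VCaP-T libraries and 0 in the 12 later libraries, so no difference was detectable at this depth.

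**Figure D2:**
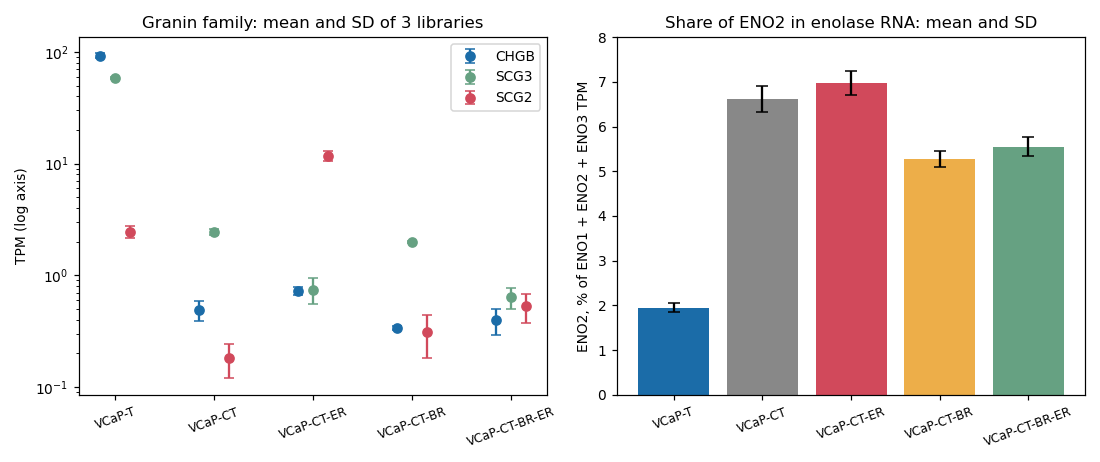
Left, TPM of CHGB, SCG3 and SCG2 on a log axis by subline; right, ENO2 as a percentage of the TPM of ENO1, ENO2 and ENO3. Points and bars are means of 3 libraries and error bars are SD. The sum of CHGA, CHGB, SCG2 and SCG3 is led by CHGB in VCaP-T and by SCG2 in VCaP-CT-ER (88.9%). The share of ENO2 went from 1.95% in VCaP-T to between 5.28% and 6.97%.

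SYP was lower in all later sublines than in VCaP-T and lowest in VCaP-CT-BR-ER. It encodes synaptophysin, an integral membrane protein of synaptic and small neuroendocrine vesicles, from chrX:49187804-49200259 on the - strand. VCaP-T held 32.9, 32.2 and 33.9 CPM. VCaP-CT held 6.19, 6.75 and 5.39 CPM, VCaP-CT-ER held 4.95, 5.68 and 4.57, and VCaP-CT-BR held 6.04, 6.54 and 5.23. The libraries of these 3 sublines overlapped. VCaP-CT-BR-ER held 2.11, 2.41 and 1.84 CPM, from 87, 89 and 70 counts, below every other library. Scaled by library size, the summed counts of VCaP-T were 5.41-fold (95% counting interval 4.97 to 5.89) those of VCaP-CT and 15.6-fold (13.7 to 17.8) those of VCaP-CT-BR-ER.

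The fall of SYP in VCaP-CT-BR-ER against VCaP-CT-BR was -1.48 ± 0.13 on the log2 scale (edgeR adjusted p = 5e-09). The log2 fold change of VCaP-CT-BR-ER against VCaP-CT-ER was -1.26 ± 0.13 (edgeR adjusted p = 4.89e-08). From VCaP-CT to VCaP-CT-ER the fall was -0.27 ± 0.11 (edgeR adjusted p = 0.0412), a call that was lost in 12 of 21 alternatives. The adjusted p was 0.221 without VCaP-CT replicate 2, 0.192 without VCaP-CT-ER replicate 3, 0.127 without VCaP-CT-ER replicate 1, 0.106 without VCaP-CT replicate 1, and between 0.0511 and 0.062 without VCaP-T replicates 1 or 3, VCaP-CT-BR replicate 1 or any VCaP-CT-BR-ER library. The step to VCaP-CT-BR-ER minus that to VCaP-CT-ER was -1.22 ± 0.17 (edgeR adjusted p = 3.93e-06). An antisense gene, SYP-AS1, shares 68 exonic bases with SYP and had 0 counts in every library.

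SNAP25 went from a clear level to the floor. It encodes a SNARE protein of the plasma membrane that drives vesicle fusion, from chr20:10218830-10307418 on the + strand. VCaP-T held 604, 581 and 693 counts, or 16.6, 15.8 and 16.3 CPM. Each of the 12 later libraries held 0, 1 or 2 counts. Summed over 3 libraries, VCaP-CT held 2 counts, VCaP-CT-ER and VCaP-CT-BR held 1 each, and VCaP-CT-BR-ER held 3. The ratio of VCaP-T to VCaP-CT, scaled by library size, was 845, with a 95% counting interval of 234 to 6980, and that to VCaP-CT-BR-ER was 629 (215 to 3060). A difference between later sublines was not detectable at this depth.

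SYT4 also stood near the floor after VCaP-T and differed there within a few counts. It encodes synaptotagmin IV, an atypical member of its family found on neurosecretory granules, from chr18:43267878-43277650 on the - strand. VCaP-T held 835, 929 and 1053 counts, or 23.0, 25.3 and 24.8 CPM. VCaP-CT held 2, 1 and 0 counts, VCaP-CT-ER 3, 4 and 2, VCaP-CT-BR 3, 5 and 8, and VCaP-CT-BR-ER 0, 2 and 0. All later libraries were thus under 0.2 CPM, and those of VCaP-CT-BR were the highest of them on average. The ratio of VCaP-T to VCaP-CT-BR was 178, with a 95% counting interval of 110 to 313.

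In VCaP-CT-BR against VCaP-CT, 4 of the 9 genes passed beside 53.2% of all genes tested. SYT4 was one of them, with an edgeR adjusted p of 0.019. The ratio of its summed counts, 16 against 3, was 4.74 after scaling by library size (95% counting interval 1.36 to 25.4). The adjusted p was 0.0862 without VCaP-CT replicate 3 and 0.0923 without VCaP-CT-BR replicate 3. VCaP-CT-BR-ER, with 2 counts in sum, was lower than VCaP-CT-BR (edgeR adjusted p = 0.0068), and the ratio was 7.94 (1.87 to 71.1). That call held in all 19 alternatives, at adjusted p values up to 0.041.

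CHGB and SCG3 also passed in VCaP-CT-BR against VCaP-CT, both lower. CHGB changed by -0.54 ± 0.2 on the log2 scale (edgeR adjusted p = 0.0325) and SCG3 by -0.33 ± 0.13 (edgeR adjusted p = 0.0337). CHGB lost the call in 6 of 21 alternatives, with adjusted p values of 0.169 and 0.109 without VCaP-CT replicates 1 and 2, and 0.0549 and 0.0917 without VCaP-CT-BR replicates 1 and 3. SCG3 lost it in 5 of 21, with 0.132 and 0.0563 without VCaP-CT replicates 1 and 3, and 0.051 to 0.085 without any VCaP-CT-BR library.

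SYT1 was low in every subline and highest on average in VCaP-CT. It encodes synaptotagmin I, the main calcium sensor of fast transmitter release, from chr12:78863993-79452008 on the + strand. The counts were 4, 6 and 12 in VCaP-T and 25, 20 and 30 in VCaP-CT. VCaP-CT-ER held 12, 17 and 9 counts, VCaP-CT-BR 13, 23 and 21, and VCaP-CT-BR-ER 5, 2 and 5. The mean in VCaP-CT was 0.721 ± 0.138 CPM, and the VCaP-T and VCaP-CT-BR-ER libraries overlapped. Those of VCaP-CT and VCaP-CT-BR overlapped as well, and VCaP-CT-BR against VCaP-CT did not pass (log2 fold change -0.56 ± 0.3, edgeR adjusted p = 0.126). An antisense gene, ENSG00000257191, shares 14 exonic bases with SYT1 and had at most 3 counts in a library. From VCaP-CT to VCaP-CT-ER, SYT1 fell by 1.37 ± 0.32 on the log2 scale (edgeR adjusted p = 0.00105), and in VCaP-CT-BR-ER against VCaP-CT-BR it fell by 2.2 ± 0.43 (edgeR adjusted p = 0.000265). Both calls held in the 20 alternatives run for each. The scaled ratios of summed counts were 2.59 (95% counting interval 1.73 to 3.93) and 4.71 (2.5 to 9.65). Against VCaP-CT-ER, VCaP-CT-BR-ER was lower, at -1.4 ± 0.46 (edgeR adjusted p = 0.0174), with an adjusted p of 0.084 without VCaP-CT-ER replicate 2 and 0.0822 without VCaP-CT-BR-ER replicate 2.

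SYT11, also low, had a pattern closer to that of SCG2. It encodes synaptotagmin XI, a family member that does not bind calcium, from chr1:155859509-155885199 on the + strand. The counts were 14, 14 and 10 in VCaP-T, 0, 3 and 3 in VCaP-CT, and 11, 13 and 17 in VCaP-CT-ER. VCaP-CT-BR held 4, 4 and 5 counts and VCaP-CT-BR-ER held 1, 4 and 7. The VCaP-T and VCaP-CT-ER libraries overlapped with each other, and those of VCaP-CT-ER lay above those of the other later sublines. SYT11 rose from VCaP-CT to VCaP-CT-ER by 2.33 ± 0.61 on the log2 scale (edgeR adjusted p = 0.00227), a scaled ratio of 5.21 in summed counts (95% counting interval 2.2 to 15). VCaP-CT-BR-ER was lower than VCaP-CT-ER, at -1.52 on this scale (edgeR adjusted p = 0.0208), with an adjusted p of 0.124 without VCaP-CT-BR-ER replicate 1, 0.0504 without its replicate 2 and 0.0899 without VCaP-CT-ER replicate 3. SYT11 passed the filter on low counts only with the VCaP-CT-ER libraries, so these tests describe the size of the difference only.

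ENO2 was the one gene of the 10 above its VCaP-T level in all later sublines. It encodes gamma enolase, the neuron-specific form of a glycolytic enzyme, from chr12:6913745-6923698 on the + strand. VCaP-T held 21.8, 21.9 and 22.1 CPM. VCaP-CT held 66.1, 70.9 and 65.0 CPM, VCaP-CT-ER 60.0, 62.6 and 57.4, VCaP-CT-BR 54.7, 55.5 and 53.0, and VCaP-CT-BR-ER 53.7, 57.7 and 59.6. The 12 later libraries lay between 53.0 and 70.9 CPM, all above VCaP-T, as for 18.1% of all genes tested, and VCaP-CT was highest. From summed counts the ratio to VCaP-T was 3.07 in VCaP-CT (95% counting interval 2.93 to 3.21) and 2.48 in VCaP-CT-BR (2.37 to 2.6).

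From VCaP-CT to VCaP-CT-BR, ENO2 fell by 0.31 ± 0.05 on the log2 scale (edgeR adjusted p = 6.51e-05), in all 21 alternatives. From VCaP-CT to VCaP-CT-ER it fell by 0.17 ± 0.05 (edgeR adjusted p = 0.011), a call lost in 5 of 21 alternatives, with adjusted p values of 0.0836 without VCaP-CT replicate 2, 0.0505 without VCaP-CT-ER replicate 1 and 0.0942 without VCaP-CT-ER replicate 3. ENO1, the enolase of most tissues, stood at 675 ± 13.1 TPM in VCaP-T and 480 to 573 TPM in the later sublines, and fell by 0.26 ± 0.03 on the log2 scale in the later sublines against VCaP-T (edgeR adjusted p = 3.32e-07). ENO2 made up 1.95% ± 0.0938 of the RNA of ENO1, ENO2 and ENO3 in VCaP-T, and 6.62% ± 0.283 in VCaP-CT.

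**Figure D3:**
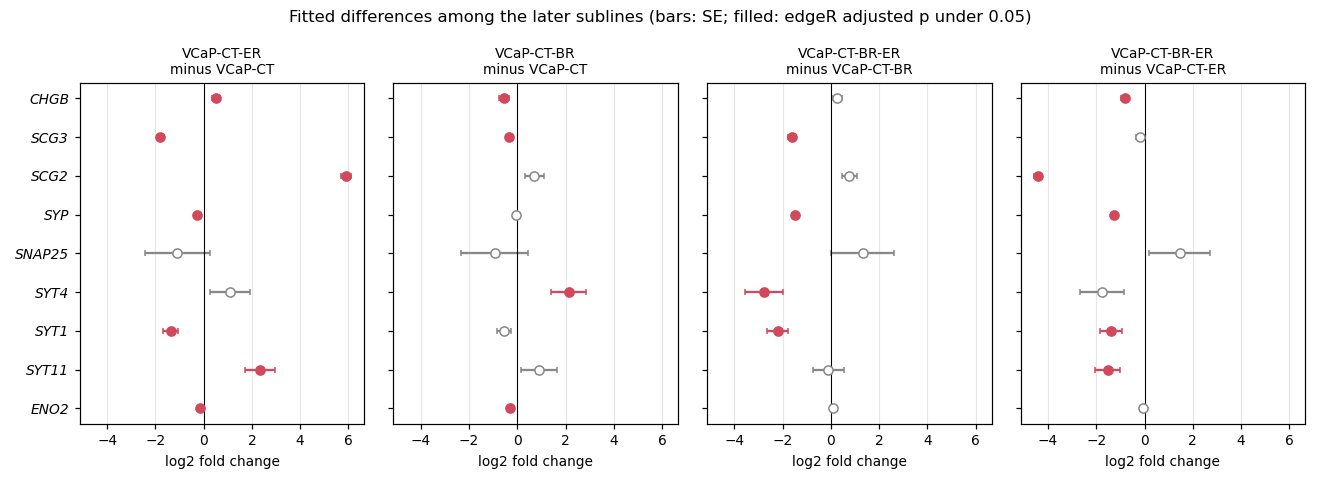
Log2 fold change of the 9 tested genes in 4 comparisons among the later sublines; bars are standard errors and filled points passed an adjusted p of 0.05 in edgeR's test. SCG2 stands at 5.91 in VCaP-CT-ER against VCaP-CT and at -4.43 in VCaP-CT-BR-ER against VCaP-CT-ER, while SCG3 and SYT1 lie below 0 in both steps into ENZ resistance.

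Genes with the pattern most like SNAP25, SYP, ENO2, SYT11 and SCG2 were ranked by Pearson's r of log2 CPM over the 15 libraries, among genes whose average log2 CPM was 1 or more, as a description. Since the libraries come in 5 sublines, a high r mostly reports the same order of sublines. Nearest to SNAP25 were VSTM2A (r = 0.9961), PRSS3, CHRNB2, CALCOCO2 and CEACAM5. VSTM2A averaged 19.6 CPM in VCaP-T and at most 0.0201 CPM in the later sublines, and CHRNB2, a nicotinic acetylcholine receptor subunit, went from 118 to between 2.07 and 2.82 CPM. Nearest to SYP were INA (r = 0.9926), WIPI2, TSPAN33, PVR and ADARB2, and nearest to ENO2 were USP11 (r = 0.9888), PEX5, ENSG00000246465, BPIFA2 and CPA6. INA, a neuronal intermediate filament, averaged 173 CPM in VCaP-T, between 45.6 and 51.1 in VCaP-CT, VCaP-CT-ER and VCaP-CT-BR cells, and 22.8 in the VCaP-CT-BR-ER cells. SYT11 had no neighbour as close, with AIG1 first (r = 0.8973), followed by ANKLE2, PET100, PPARGC1A and MT-TP. SCG2 was added to this ranking after its values were seen. Nearest to it were NLRP11 (r = 0.9729), A1CF, ATP2A2, SGK2 and PBLD. A1CF averaged 37.3 CPM in VCaP-CT-ER and at most 2.65 in any other subline, and SGK2 averaged 67.6 CPM against at most 6.03.

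The genes next to the lost and raised members on the chromosome were tested in the same fit, taking the 2 nearest tested genes on each side. Of these 24 neighbours, 4 had a mean under 0.5 times that of VCaP-T in every later subline and 1 had a mean over 2 times it, beside 7.84% and 3.5% of all genes tested. LAMP5, 688 kb from SNAP25, averaged 2.25 CPM in VCaP-T and at most 0.0687 CPM later, a change of -5.6 ± 0.26 on the log2 scale over those sublines (edgeR adjusted p = 2.38e-14). PLP2, 12.6 kb from SYP, went from 6.01 CPM to between 0.686 and 1.99 CPM, a fold change of -2.67 ± 0.13 on the log2 scale (edgeR adjusted p = 4.05e-14). The others were the pseudogenes KRT8P5 near SYT4 and EIF4EP1 near CHGB, both at or under 1.03 CPM in VCaP-T, and SETBP1-DT near SYT4, which rose by 1.51 ± 0.22 on the log2 scale from 0.431 CPM (edgeR adjusted p = 3.36e-06).

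Other neighbours, also those close to a lost gene, stayed within these thresholds. TRMT6 and MCM8, 11.9 and 25.3 kb from CHGB, rose by 0.25 ± 0.06 and 0.81 ± 0.05 on the log2 scale (edgeR adjusted p = 0.000824 and 7.52e-12). On the other side of CHGB, at 47.5 kb, SHLD1 fell by 1.17 ± 0.08 on this scale (edgeR adjusted p = 2.91e-11), from 12.9 CPM in VCaP-T to between 4.18 and 8.42 CPM later. DMXL2 and LYSMD2, 58.5 and 1.98 kb from SCG3, had log2 fold changes of -0.17 ± 0.05 and 0.54 ± 0.06 (edgeR adjusted p = 0.00216 and 1.5e-07). ATN1, 0.765 kb from the raised ENO2, rose by 0.61 ± 0.08 (edgeR adjusted p = 5.73e-07), and LRRC23, whose span overlaps the start of ENO2, had 0.1 ± 0.07 (edgeR adjusted p = 0.203). Beside SCG2, whose neighbours were added after its values were seen, AP1S3 averaged 18.7 CPM in VCaP-CT and 81.9 in VCaP-CT-ER, and WDFY1 56.8 and 89.5. In VCaP-CT-BR-ER, where SCG2 averaged 0.571 CPM, AP1S3 averaged 45.1 CPM and WDFY1 81.5, against 24.4 and 45.6 in VCaP-T.

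**Figure D4:**
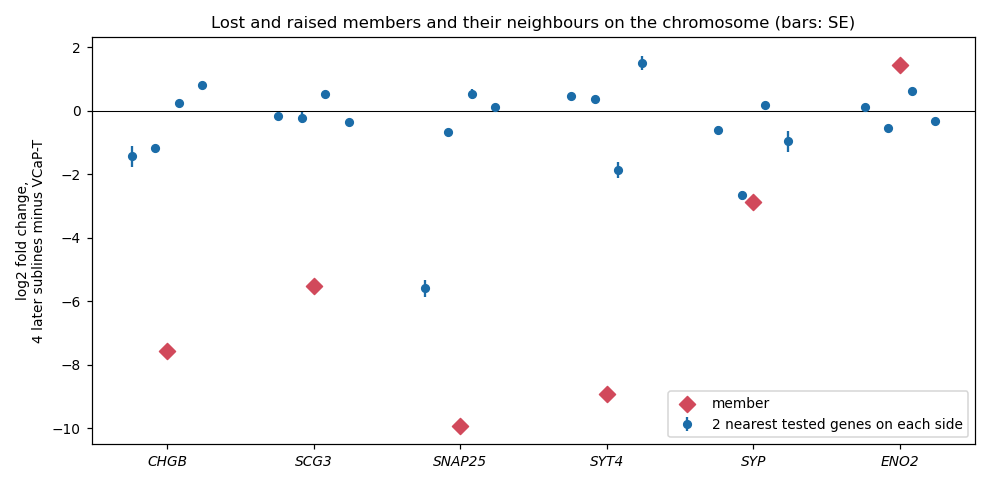
Log2 fold change of the 4 later sublines against VCaP-T for each lost or raised member (diamond) and its 2 nearest tested genes on each side (circles, with SE). LAMP5 beside SNAP25, at -5.6, and PLP2 beside SYP, at -2.67, are the neighbours that lie lowest; most others lie within 1 of 0.

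The wider machinery was examined through lists of genes that are not members. These lists were also chosen with earlier results of these data known. Their counts are thus a description and no independent support for the split of the members. In the later sublines together against VCaP-T, 36.1% of all genes tested were higher and 36.4% lower, with a median log2 fold change of 0.02. Of 14 tested dense core granule and prohormone genes, 3 were higher and 11 lower (median log2 fold change -2.53). Of 20 synaptic vesicle membrane genes, 5 were higher, 12 lower and 3 did not pass (median -0.49). Of 32 SNARE and exocytosis genes, 8 were higher, 18 lower and 6 did not pass (median -0.38). Of 11 other synaptotagmins, 4 were higher and 7 lower (median -0.58). Of 13 neuronal and neuroendocrine markers, 3 were higher, 7 lower and 3 did not pass (median -0.67). Of 2 other enolases, 1 was lower and 1 did not pass (median -0.14).

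Granule and release genes that fell steeply were found beside others that rose. From each list, the genes named, falling or rising, were those that passed and changed most in the later sublines against VCaP-T. Their tests in this contrast are thus not independent of that choice and describe the size of the difference only. PTPRN2, a membrane protein of dense core granules, averaged 869 CPM in VCaP-T and 50.2 to 174 CPM later, -3.55 ± 0.05 on the log2 scale (edgeR adjusted p = 1.35e-23). VGF, a granin-like neuropeptide precursor, went from 19.1 CPM to between 1.35 and 2.87 CPM (log2 fold change -3.38 ± 0.09, edgeR adjusted p = 1.51e-18). CPLX2, which encodes the SNARE clamp complexin 2, went from 122 CPM to at most 0.113 CPM in any later subline. SYN1, which tethers synaptic vesicles, went from 12.8 CPM to between 0.238 and 1.2 CPM (-4.56 ± 0.11 on the log2 scale). CPLX2 and SYN1, like L1CAM, reached the average log2 CPM of 1 asked of named genes only through their level in VCaP-T. SV2B, RAB3D, SYT13, SYT14, INA, CD24 and L1CAM also fell, with log2 fold changes between -1.16 and -4.29, and SYT7 fell by 0.27 ± 0.05 (edgeR adjusted p = 2.53e-05).

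Of those that rose, CADPS2, a granule priming factor, averaged 7.2 CPM in VCaP-T and 11.1 to 32.7 later (log2 change 1.47 ± 0.08, edgeR adjusted p = 1.92e-13). RAB3A, the small GTPase of synaptic vesicles, went from 18.4 to between 31.3 and 39.4 CPM (0.96 ± 0.08, edgeR adjusted p = 2.4e-10), and VAMP2, the vesicle SNARE that pairs with SNAP25, from 13.9 to between 20.2 and 28.1 (0.78 ± 0.07, edgeR adjusted p = 1.88e-09). STXBP5L, RIMS1, SYT12, SYT9, SYT17, SCAMP1, SYPL1 and BAIAP3 rose as well, by 0.38 to 2.03 on the log2 scale. MAP2, a microtubule protein of neuronal dendrites, rose 2.9 ± 0.07 on this scale, from 6.43 to between 33.6 and 65.0 CPM (edgeR adjusted p = 5e-19).

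Several of the named genes outside the 10 were, like SCG2, higher in VCaP-CT-ER than in VCaP-CT, a comparison in which 29.6% of all genes tested were higher and 31.2% lower. The dense core granule genes had 6 of 14 higher and 4 lower, the SNARE and exocytosis genes 13 of 32 higher and 13 lower, and the neuronal markers 5 of 13 higher and 4 lower. The synaptic vesicle membrane genes had 7 of 20 higher and 10 lower, and the synaptotagmins 1 of 11 higher and 3 lower. Other named genes were lower in this comparison. PTPRN2 went from 174 to 54.9 CPM (log2 fold change -1.66 ± 0.07, edgeR adjusted p = 3.54e-14). SV2B went from 2.83 to 0.808 CPM (-1.8 ± 0.22, edgeR adjusted p = 5.51e-07). SYT13 averaged 3.75 and 0.853 CPM in VCaP-CT and VCaP-CT-ER, and SYT12 3.61 and 1.06 CPM. CPE, the carboxypeptidase that trims prohormones, averaged 153 CPM for VCaP-T and 15 for VCaP-CT, and then 79.0 in VCaP-CT-ER, 18.9 for VCaP-CT-BR and 13.4 for VCaP-CT-BR-ER. It rose from VCaP-CT to VCaP-CT-ER by 2.39 ± 0.06 on the log2 scale (edgeR adjusted p = 7.25e-19), and the step to VCaP-CT-BR-ER minus this step was -2.89 ± 0.08 (edgeR adjusted p = 1.07e-16). UNC13A, a vesicle priming factor, had 267 CPM in VCaP-T cells, 10.9 after androgen deprivation in VCaP-CT and 53.0 for VCaP-CT-ER, where it rose by 2.29 ± 0.09 over VCaP-CT on the log2 scale (edgeR adjusted p = 2.56e-15), and the same difference of steps was -1.58 ± 0.13 (edgeR adjusted p = 1.98e-09). RIMS2, an active zone scaffold, had 33.4, 0.0973 and 3.47 CPM in these sublines. It rose by 5.12 ± 0.26 over VCaP-CT (edgeR adjusted p = 3.86e-13), and the difference of steps was -2.36 ± 0.74 (edgeR adjusted p = 0.0117).

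NLGN1, a synaptic adhesion gene, averaged 0.349 CPM in VCaP-CT and 7.35 in VCaP-CT-ER, with 0.701 in VCaP-CT-BR-ER. Its rise was 4.39 ± 0.2 on the log2 scale, and the difference of steps was -4.2 ± 0.35. Every other subline averaged 0.701 CPM or less, so only VCaP-CT-ER brought NLGN1 to the average level asked of named genes. Both values involve this subline, are not independent of that choice and describe the size of the difference only. GRIA2, a glutamate receptor subunit, had no counts in VCaP-T and averaged 0.105 CPM for VCaP-CT, 8.79 for VCaP-CT-ER, 1.03 for VCaP-CT-BR and 5.06 for VCaP-CT-BR-ER. CPLX2 stayed at or under 0.113 CPM in VCaP-CT-ER and the other later sublines.

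**Figure D5:**
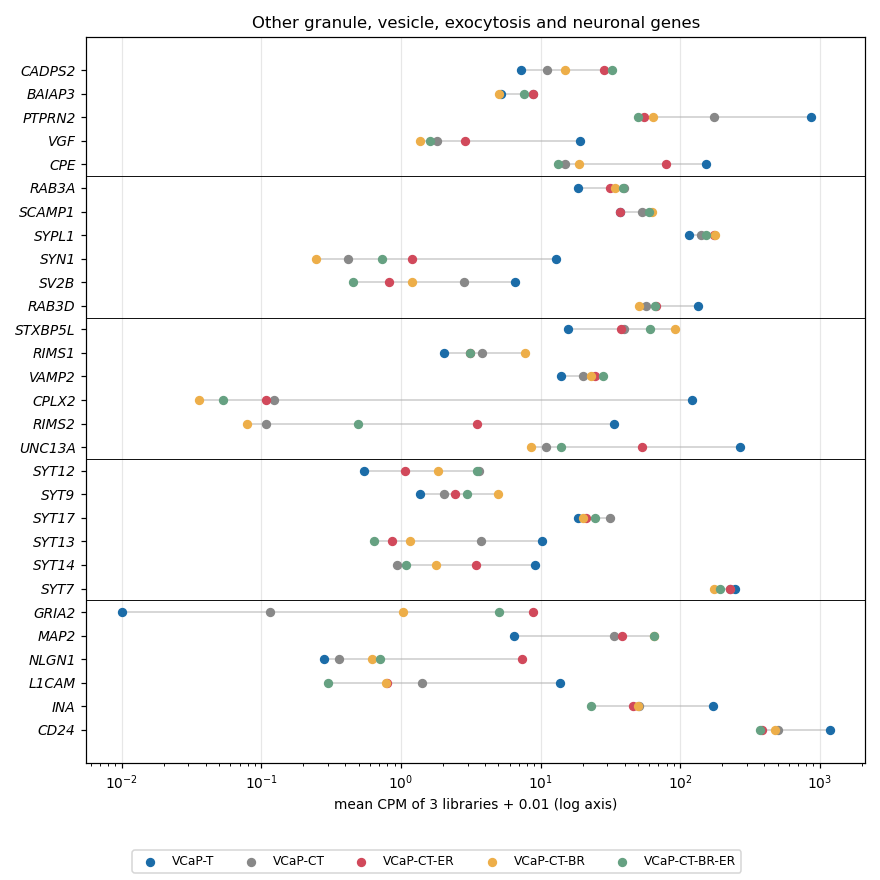
Mean CPM plus 0.01 (log axis) of named genes outside the 10, by subline; lines separate, from the top, granule, vesicle membrane, exocytosis, synaptotagmin and neuronal marker genes. CPLX2 lies at 122 CPM for VCaP-T and at or under 0.113 for every later subline, and CPE, UNC13A and RIMS2 lie higher in VCaP-CT-ER than in the other later sublines. PTPRN2, SV2B, SYT13 and SYT12 lie lower in VCaP-CT-ER than in VCaP-CT.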

How the data were processed

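Bulk RNA-seq of 15 libraries, 3 per VCaP subline, was re-analysed. Per the labels and the Methods, the authors aligned paired reads to GRCh38 with STAR 2.5.4b and deposited raw gene counts from featureCounts 1.6.2 on GENCODE release 28. The counting took no account of strand, so reads of antisense partners cannot be told apart. Identifiers were given symbols from GENCODE release 44. Of 58381 genes, 57754, with 99.84% of the counts, had one.

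The 10 members and the gene lists were chosen with earlier results of these data known. Counts were tested with edgeR 4.0.16 in R 4.3.3 (filterByExpr at a minimum count of 10, TMM, 1 term per subline over 15 libraries, quasi-likelihood F tests, Benjamini-Hochberg adjustment over 19621 genes, threshold 0.05). The biological coefficient of variation was 0.0609. The standard error is the log2 fold change over the square root of F. The fit was tested on simulated data. TPM used the deposited exon lengths. Ratios of summed counts were scaled by TMM library sizes and have exact binomial 95% intervals. Library totals were 33665716 to 46935279.

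Named genes were the members; from each list other than the cell type markers, up to 3 non-members that rose and 3 that fell most in the later sublines against VCaP-T, among those that passed and averaged a log2 CPM of 1 or more; and genes nearest on the chromosome or in pattern. A gene of the neuronal marker list is not reported here. Alternatives were DESeq2 1.42.0, other filters and scaling, fits of only the sublines compared, a replicate block, and fits that each left out 1 library. Figures were drawn with matplotlib 3.10.9.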

Additional observations from a re-analysis of the deposited data

Results flagged for a closer look

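For 5 of the members, the step into ENZ resistance from VCaP-CT to VCaP-CT-ER differed from the step that took VCaP-CT-BR cells to VCaP-CT-BR-ER in edgeR's test of the difference itself, given as the second step minus the first on the log2 scale; 49.7% of all genes tested also differed. SCG2 had -5.14 ± 0.47 (adjusted p = 1.3e-08), with steps of 5.91 and 0.77. SYP had -1.22 ± 0.17 (adjusted p = 3.93e-06), with steps of -0.27 and -1.48. SYT4 had -3.89 ± 1.16 (adjusted p = 0.0086), from at most 8 counts in a library. SYT11 had -2.43 ± 0.92 (adjusted p = 0.0333), also from few counts, and lost the call in 7 of 19 alternatives, with adjusted p values of 0.0783 without VCaP-CT replicate 1, 0.0687 without VCaP-CT-ER replicate 3, 0.0777 and 0.051 without VCaP-CT-BR-ER replicates 1 and 2, and 0.0516 to 0.0716 without any VCaP-CT-BR library. ENO2 had 0.23 ± 0.08 (adjusted p = 0.0148), and lost the call in 5 of 20 alternatives, with 0.0635 without VCaP-CT replicate 2, 0.0522 without VCaP-CT-ER replicate 3, 0.0513 without VCaP-CT-BR replicate 3 and 0.0616 without VCaP-CT-BR-ER replicate 3. SCG2, SYP and SYT4 kept it in every alternative run. SCG2 and SYT11 stayed out of the lost class only through VCaP-CT-ER, and SYT11 needed its libraries to pass the filter on low counts. Their values here involve that subline and describe the size of the difference only. Whether the difference comes from bicalutamide, time in culture or the separate derivations cannot be told apart. The labels also name ENZ for VCaP-CT-BR, so whether those cells had already seen it is not clear.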

How the results depend on the processing

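Over 1255 recomputed values for the members, 1182 kept their direction and their side of the threshold, 48 lost a call, 7 gained one, 18 fold changes against VCaP-T, given without a test, moved by more than the spread between replicates, and 0 changed sign with a call. Depth limits the low genes: with at least 10 counts in every library, 4 members could be tested, and the number that passed was 4 in VCaP-CT-ER against VCaP-CT, 2 in VCaP-CT-BR-ER against VCaP-CT-BR, 2 in VCaP-CT-BR-ER against VCaP-CT-ER and 2 in the difference between the steps into ENZ resistance. The number with a lower fitted level than in VCaP-T was 3 of 4 in VCaP-CT and 3 of 4 in the later sublines together, against 7 of 9 before. Since the members were chosen with that contrast in view, nothing is read from it. With only the 2 sublines compared in the fit, 4 members passed in VCaP-CT-ER against VCaP-CT (6 tested), 2 in VCaP-CT-BR against VCaP-CT (5 tested) and 3 in VCaP-CT-BR-ER against VCaP-CT-ER (5 tested). With each library left out in turn, 1 to 4 members passed in VCaP-CT-BR against VCaP-CT, lowest without VCaP-CT-BR replicate 3, beside 9167 to 10566 of all genes. In the difference between the steps 3 to 5 members passed, lowest without VCaP-CT-ER replicate 3 or VCaP-CT-BR replicate 3, beside 9029 to 9817 of all genes. Shares over all genes are not given for the stricter filter, the fits of 2 sublines or the replicate block. Counts of members in those settings show only which calls depend on the processing.

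The same-numbered replicates did not deviate together throughout: correlations of their deviations from the subline means over 13052 genes ran from -0.474 to 0.468. Those of replicate 2 were positive in every pair of later sublines, from 0.173 to 0.433. No pair of sublines had all 3 above 0.1, so the numbers were not taken as pairs. With the replicate number as a block, 7 members passed in VCaP-CT-ER against VCaP-CT, 4 in VCaP-CT-BR against VCaP-CT, and there were 5 in VCaP-CT-BR-ER against VCaP-CT-BR, where SCG2 gained the call (adjusted p = 0.0366). The block changed no other call of a member. With a 3-fold in place of a 2-fold limit, the same 5 genes were lost and ENO2 was no longer raised. DESeq2 gave SCG2 an adjusted p of 0.0376 in VCaP-CT-BR-ER against VCaP-CT-BR.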
